A study of Gallus gallus with 2 samples.

Results

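T-DOM is the telomeric regulatory landscape of the HoxD cluster, and its internal contacts were examined in chick limb buds. T-DOM was taken as positions 15925001 to 16315000 of chromosome 7 (assembly galGal5), a stretch of 390 kb that stops short of the Hoxd genes. Its members are all pairs of 5-kb bins with both bins in this stretch, 3081 pairs of 78 bins out of 171405 pairs in the capture region. The data come from capture Hi-C (CHi-C), in which chromatin is crosslinked, cut with DpnII and ligated, and the joined fragments of 1 locus are enriched with probes before sequencing. There were 2 libraries, 1 from whole hindlimb buds and 1 from whole forelimb buds of wild-type White Leghorn embryos at stage HH20. Each was made from pooled buds that hold every cell type of the bud, so a contact value is an average over them. With 1 library per tissue no difference has a replicate check, and all intervals are at 95% and cover counting error only.

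Chromosomes fold into topologically associating domains (TADs), stretches whose sequences meet each other more often than they meet their neighbours, and a TAD can hold smaller sub-domains. T-DOM is such a domain. In the mouse it carries enhancers that drive Hoxd genes in the early and proximal limb bud, whereas the landscape on the other side of the cluster, C-DOM, serves the digits. CS65, CS93 and CS39 are conserved non-coding sequences of T-DOM that the study treats as limb enhancers or candidates for them. On this assembly the cluster lies beyond the higher end of T-DOM, which is called the near end here, and the lower end is called the far end.

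CS65 lies at 15991759 to 15992722, CS93 at 16104952 to 16105803 and CS39 at 16142783 to 16144175, all on chromosome 7. CS65 was represented by the 5 bins that cover it with 10 kb on either side (15980 to 16005 kb), CS93 by the 6 bins of a 30-kb window (16090 to 16120 kb) and CS39 by 5 bins chosen as for CS65 (16130 to 16155 kb). The listed conserved elements of T-DOM numbered 60 and fell in 47 of its bins.

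T-DOM held 287316 read pairs in the hindlimb library and 257729 in the forelimb library, which was 8.92% and 8.32% of the pairs captured. Over 4 sequencing lanes this share was between 8.87% and 9.06% in hindlimb and between 8.30% and 8.37% in forelimb. Every one of the 3081 bin pairs held at least 1 read pair in either library. A bin pair at least 10 kb apart held a median of 71 read pairs in hindlimb and 65 in forelimb, with a lowest count of 6 in both. The bins at 16120 and 16145 kb were masked in both balanced matrices and carry no balanced value. They held 3307 and 3846 captured pairs in hindlimb and 3139 and 3591 in forelimb, while the 76 other bins held at least 6196 in hindlimb and at least 5603 in forelimb. The masked bin at 16145 kb adjoins CS39 and holds the start of CS38, and this bears on how finely the border described below can be placed.

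Contacts were expressed as observed over expected (O/E), the balanced contact of a bin pair divided by the mean of all bin pairs of the capture region at the same distance. Within T-DOM this value grew with distance in both libraries. From 10 to under 20 kb apart it averaged 0.90 in hindlimb and 0.91 in forelimb. Between 40 and 80 kb it averaged 0.95 in hindlimb and 0.97 in forelimb, and from 160 to 320 kb it reached 1.07 in hindlimb and 1.10 in forelimb. The longest distances, 320 to 390 kb, gave 1.30 in hindlimb and 1.39 in forelimb over 105 bin pairs and 4325 and 4295 read pairs. Sequences of T-DOM thus met their close neighbours somewhat less, and sequences across the whole domain more, than sequences of the capture region did on average at equal distance.

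The slope of this decay was shallower in T-DOM than over the capture region as a whole. On log scales from 10 to 250 kb it was -0.53 in hindlimb and -0.50 in forelimb within T-DOM, against -0.59 and -0.57 over the capture region. C-DOM, whose 280 kb lie on the other side of the cluster, had slopes of -0.34 in hindlimb and -0.33 in forelimb. Its mean O/E for pairs at least 160 kb apart, which all lie under 280 kb apart, was 1.44 in hindlimb and 1.40 in forelimb (246 bin pairs). T-DOM pairs from 160 to 320 kb apart had lower values, 1.07 and 1.10 (946 bin pairs), over a wider span of distances. These slopes are descriptions of 1 library each and were not tested.

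**Figure D1:**
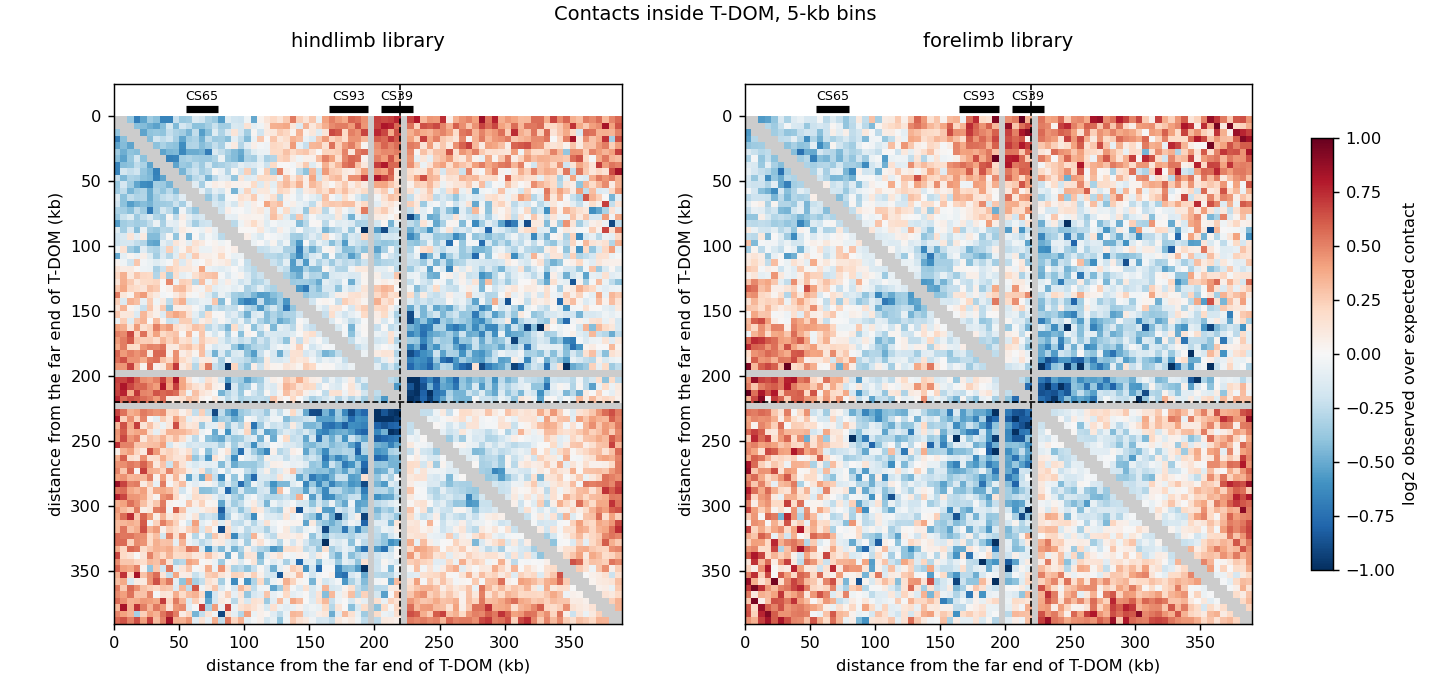
Balanced contact of every pair of 5-kb bins of T-DOM at least 10 kb apart in the hindlimb library (left) and the forelimb library (right), as log2 observed over expected (blue below 0, red above 0, white at 0, grey for masked bins and for pairs under 10 kb apart); both axes give the distance from the far end of T-DOM in kb, dashed lines mark the sub-domain border and black bars the windows of CS65, CS93 and CS39. In both maps the lowest values lie just across the border next to CS39, and some of the highest where the far end of T-DOM meets the CS39 side of the border (25-kb corner, mean 1.55 in both).

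Whether T-DOM is one domain or several was asked with an insulation score, the mean balanced contact across each bin boundary within 100 kb on either side, as log2 over its mean in the capture region. A low score marks a place that contacts seldom cross. One minimum lay inside T-DOM in both libraries, at 16145 kb, with a score of -0.41 in hindlimb and -0.37 in forelimb. Contacts across it thus stood at 0.75 of the capture-region mean in hindlimb and 0.77 in forelimb. The minimum was 0.53 below the lower of its flanking maxima in hindlimb and 0.55 below in forelimb, a depth that ranked it 7 among 16 minima of the capture region in hindlimb and 7 among 17 in forelimb. The far end of T-DOM, at 15925 kb, scored -0.81 in hindlimb and -0.78 in forelimb, and the nearest minimum on the other side, which lies in the cluster at 16385 kb and beyond the near end of T-DOM, scored -1.27 in hindlimb and -1.24 in forelimb. Both of these scores were lower than that of the inner border. The near end of T-DOM as taken here, at 16315 kb, was no minimum and scored -0.012 in hindlimb and -0.057 in forelimb.

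The border falls past the end of CS39 and either before CS38 or within it. CS39 ends at 16144175, in the last bin before it, and CS38 spans 16149267 to 16150652. Since the bin from 16145 to 16150 kb is masked, the scores at both of its ends draw on nearly the same bin pairs. They barely differed (-0.41 at both in hindlimb, -0.37 at both in forelimb). With a window of 50 kb the minimum was at 16150 kb in hindlimb, score -0.65, and at 16145 kb in forelimb, score -0.59. The position was resolved no further than these 5 kb. CS39 itself was on the far side.

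The shorter window of 50 kb brought out a weaker minimum at 16060 kb in both libraries. Its score was -0.25 in hindlimb and -0.19 in forelimb, ranking 10 and 12 among 24 minima of the capture region in each library. The bins next to it hold CS12 and CS56. Another minimum, at 16205 kb with a score of -0.10, was found in the hindlimb matrix and not in the forelimb matrix at this window, and it ranked 21 of 24 by depth. With windows of 100 and 150 kb neither was a minimum. The highest score of T-DOM lay in its near part, 0.50 at 16270 kb in hindlimb and 0.48 at 16265 kb in forelimb.

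**Figure D2:**
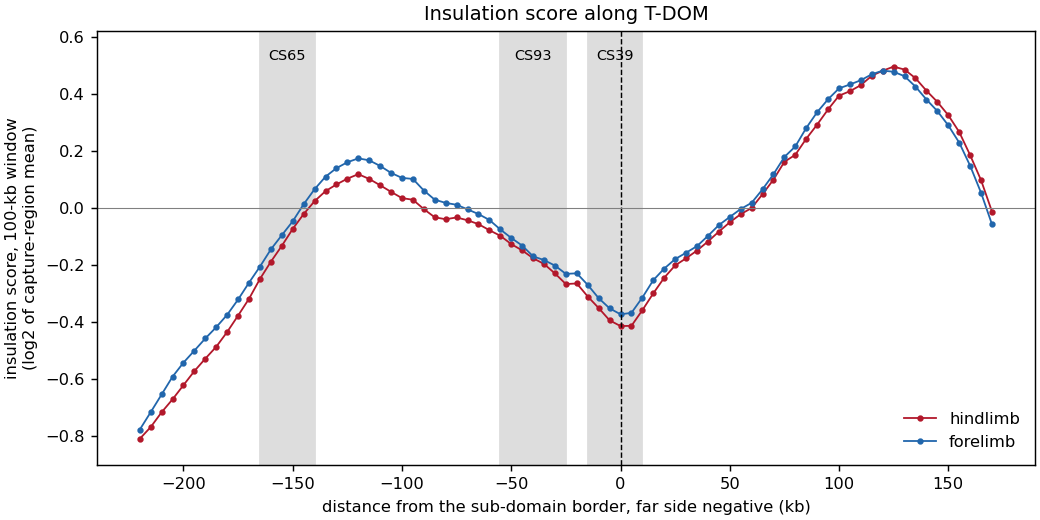
Insulation score (log2 over the capture-region mean, 100-kb window) at each 5-kb boundary of T-DOM against the distance from the sub-domain border, with the far side negative, in the hindlimb library (red) and the forelimb library (blue); grey bands are the windows of CS65, CS93 and CS39. Both lines have their inner minimum at the border (-0.41 hindlimb, -0.37 forelimb). The hindlimb line runs below the forelimb line along the whole far side and most of the near side, and above it toward the near end.

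The insulation profiles of both libraries had nearly the same shape. Over the 79 boundaries of T-DOM the hindlimb score minus the forelimb score had a median of -0.036 and ranged from -0.079 at 15940 kb to 0.045 at 16315 kb. Each score is relative to the mean of its own library. The balanced contact itself across the border averaged 4.93 per 1000 contacts of a bin in hindlimb and 4.93 in forelimb, so the lower hindlimb score there comes with no lower contact value.

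The border divides T-DOM into a far sub-domain of 220 kb (15925001 to 16145000, 43 unmasked bins, 42 elements including CS65, CS93 and CS39) and a near sub-domain of 170 kb (16145001 to 16315000, 33 unmasked bins, 18 elements). Over the distances that both kinds of bin pair share, O/E averaged 0.86 for pairs across the border and 1.03 for pairs on one side of it in hindlimb, a ratio of 0.836 (interval 0.828 to 0.844). In forelimb the averages were 0.88 across and 1.06 on one side, a ratio of 0.830 (0.821 to 0.838). The intervals of the libraries overlap. The border was placed on the same matrices, so these ratios describe it and do not test it. They pool the shared distances without matching them, and pairs on one side are mostly closer together than pairs across. In each shared distance band, the value across the border was a smaller fraction of that of either sub-domain than these pooled ratios.

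The contrast was present in every shared distance band. Values across the border were lowest at short range, where few bin pairs cross it. Between 20 and 40 kb apart, pairs across the border averaged an O/E of 0.56 in hindlimb and 0.58 in forelimb (16 bin pairs). Pairs within the near sub-domain averaged 1.00 in hindlimb and 1.01 in forelimb at this distance, and pairs within the far sub-domain 0.88 in hindlimb and 0.90 in forelimb. From 120 to 170 kb the values across the border were 0.85 in hindlimb and 0.87 in forelimb, against 1.29 and 1.33 within the near sub-domain and 1.18 and 1.24 within the far one. At 170 to 220 kb, pairs across the border averaged 0.96 in hindlimb and 0.98 in forelimb, against 1.46 and 1.49 within the far sub-domain. The contrast was thus wide at this distance too. Beyond 220 kb, where only pairs across the border exist, O/E passed 1, with 1.10 in hindlimb and 1.14 in forelimb from 220 to 300 kb. In both libraries the near sub-domain had the higher O/E of both sub-domains in every distance band they shared.

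**Figure D3:**
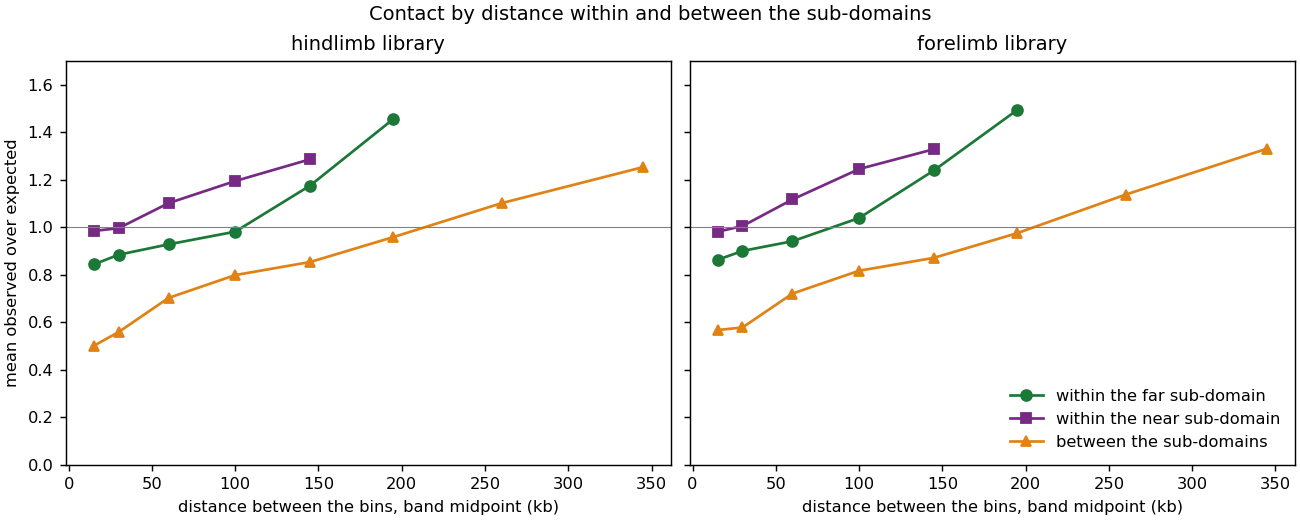
Mean observed over expected by distance between the bins (band midpoints in kb) for pairs within the far sub-domain (green circles), within the near sub-domain (purple squares) and between them (orange triangles), in the hindlimb library (left) and the forelimb library (right). Pairs across the border sit lowest at every shared distance (0.56 hindlimb and 0.58 forelimb at 20 to 40 kb), and all lines climb with distance.

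The ends of the sub-domains met each other more often than the mean of the capture region at their distance. The first 25 kb of T-DOM with the last 25 kb before the border had a mean O/E of 1.55 in hindlimb and 1.55 in forelimb, over 20 bin pairs with 1893 and 1629 read pairs. The corner of the near sub-domain, its first 25 kb with its last, had 1.34 in hindlimb and 1.39 in forelimb. Its last 25 kb end where T-DOM was cut off here, which was no insulation minimum. Pairs within the near sub-domain 120 to 170 kb apart averaged 1.29 in hindlimb and 1.33 in forelimb. Both ends of T-DOM, 365 kb apart, met at 1.36 in hindlimb and 1.44 in forelimb, over 25 bin pairs with 1135 and 1096 read pairs. Values of T-DOM at like distances were nearly as high. Pairs within the far sub-domain 170 to 220 kb apart averaged 1.46 in hindlimb and 1.49 in forelimb, and T-DOM pairs 320 to 390 kb apart averaged 1.30 in hindlimb and 1.39 in forelimb.

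The strongest and weakest spots were sought as patches of 15 kb by 15 kb whose nearest bins start at least 30 kb apart. The 2346 patches of T-DOM had a median O/E of 0.99 in hindlimb and 1.01 in forelimb. The patches named were those with the most extreme forelimb values, so their forelimb values were chosen and are given as a description. The highest joined 15925 to 15940 kb, which holds CS17 and CS73, to 16135 to 16150 kb, whose unmasked bins hold CS39 to CS41, with an O/E of 1.56 in hindlimb (625 read pairs) and 1.66 in forelimb (570 read pairs). Its hindlimb value exceeded 99.7% of the hindlimb patches, which were not matched to it by distance. The sides of this patch start 210 kb apart. Pairs within the far sub-domain 170 to 220 kb apart averaged 1.46 in hindlimb and 1.49 in forelimb, so it stood only a little above its distance.

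The stretch from 15935 to 15950 kb met the near end, 16300 to 16315 kb, at 1.32 in hindlimb and 1.64 in forelimb. T-DOM pairs 320 to 390 kb apart averaged 1.30 in hindlimb and 1.39 in forelimb, so the hindlimb value was close to that of its distance. The bins from 15945 to 15960 kb met 16115 to 16130 kb, whose unmasked bins hold CS42 to CS44, at 1.28 in hindlimb and 1.59 in forelimb. The sides of this patch start 170 kb apart. Pairs within the far sub-domain averaged 1.18 in hindlimb and 1.24 in forelimb from 120 to 170 kb. From 170 to 220 kb they averaged 1.46 and 1.49, so the hindlimb value of the patch lay between both bands. Within the near sub-domain, 16215 to 16230 kb, the bins of CS32, met the near end at 1.44 in hindlimb and 1.58 in forelimb. Pairs within the near sub-domain 80 to 120 kb apart averaged 1.19 in hindlimb and 1.25 in forelimb. The fifth patch joined 15925 to 15940 kb to 16115 to 16130 kb, at 1.54 in hindlimb and 1.58 in forelimb, little above the far pairs 170 to 220 kb apart. Of these 5 patches, 4 had one side in the first 35 kb of T-DOM, but these sides overlap. The share of all patches with a side there was not counted, so the number shows no enrichment.

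All 3 of the lowest patches crossed the border over short distances. The bins from 16110 to 16125 kb, of which the unmasked ones hold CS46, met 16170 to 16185 kb, with CS8 and CS35 to CS37, at 0.72 in hindlimb and 0.58 in forelimb. They met 16150 to 16165 kb at 0.63 in hindlimb and 0.60 in forelimb. The bins from 16125 to 16140 kb met 16165 to 16180 kb at 0.63 in hindlimb and 0.64 in forelimb.

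Bin pairs with an O/E of at least 1.5 in both libraries were counted among pairs 30 to 385 kb apart. They made up 33 of 2494 pairs in T-DOM, or 1.32%, against 4.52% over the capture region and 4.06% in C-DOM. The capture region as a whole has thinner bin pairs, with a median of 40 read pairs in hindlimb and 39 in forelimb against 68.5 and 63 in T-DOM, and its higher share was not adjusted for this. Each of the 33 pairs had a bin in the first 50 kb or the last 25 kb of T-DOM, strips that hold 37.9% of the pairs counted and were chosen after the values were seen. Of the pairs counted in each class, 13 of 707 (1.84%) passed within the far sub-domain, 8 of 378 (2.12%) within the near one and 12 of 1409 (0.85%) between them.

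Bins with a conserved element did not stand above the others. Among pairs at least 30 kb apart, the median O/E was 0.97 in hindlimb and 0.99 in forelimb where both bins held an element (863 pairs), 0.99 in hindlimb and 1.02 in forelimb where 1 did (1224 pairs), and 1.05 in hindlimb and 1.07 in forelimb where neither did (407 pairs). Pairs of the first kind were also closer together, with a median distance of 125 kb against 140 kb for the last.

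Contacts among CS65, CS93 and CS39 were then measured block by block. CS65 and CS93, both in the far sub-domain and 90 to 135 kb apart, had a mean O/E of 1.06 ± 0.16 in hindlimb and 1.12 ± 0.13 in forelimb (SD over 30 bin pairs). All T-DOM pairs over the same span of distances averaged 0.98 in hindlimb and 1.02 in forelimb, and these include pairs across the border. Pairs within the far sub-domain averaged 0.98 in hindlimb and 1.04 in forelimb from 80 to 120 kb. From 120 to 170 kb they averaged 1.18 and 1.24. The O/E was above 1 in 18 of the 30 bin pairs in hindlimb and in 27 in forelimb. Over all distances in the far sub-domain it was above 1 in 373 of 862 bin pairs in hindlimb and in 407 in forelimb. No such share was counted at matched distances, so these counts show no enrichment of the block. The block held 2412 read pairs in hindlimb (interval 2317 to 2510) and 2330 in forelimb (2236 to 2427).

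CS65 and CS39, 130 to 170 kb apart, had a mean O/E of 1.05 ± 0.16 in hindlimb and 1.12 ± 0.17 in forelimb (SD over 20 bin pairs), where T-DOM pairs of the same distances averaged 1.00 in hindlimb and 1.04 in forelimb. The block held 1441 read pairs in hindlimb (interval 1368 to 1517) and 1362 in forelimb (1291 to 1436). The T-DOM pairs again include pairs across the border. The 3 unmasked CS39 bins on the far side of the border met CS65 at 1.07 to 1.12 in hindlimb and 1.15 to 1.20 in forelimb. These values did not exceed the mean within the far sub-domain at 120 to 170 kb, 1.18 in hindlimb and 1.24 in forelimb. The bin beyond the border, at 16150 kb, met it at 0.90 in hindlimb and 0.94 in forelimb.

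CS93 and CS39 are neighbours, 15 to 60 kb apart, and their block was the one of the 3 with a mean O/E under 1. It was 0.87 ± 0.17 in hindlimb and 0.89 ± 0.17 in forelimb (SD over 24 bin pairs), against 0.93 in hindlimb and 0.94 in forelimb for T-DOM pairs of the same distances. The bins at 16130 and 16135 kb met CS93 at 0.94 and 1.03 in hindlimb and at 1.02 and 0.97 in forelimb. The bin of CS39 itself, at 16140 kb, gave 0.86 in hindlimb and 0.89 in forelimb, and the bin at 16150 kb, past the border, gave 0.63 in hindlimb and 0.67 in forelimb. The block therefore mixes both sides of the border, with its lowest values in the bin across it.

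Few read pairs joined the elements themselves, since CS65 holds the middle of 1 restriction fragment and CS93 and CS39 of 3 each. CS93 and CS39 were joined by 10 read pairs in hindlimb (Poisson interval 4.80 to 18.4) and 5 in forelimb (1.62 to 11.7). CS65 was joined to CS93 by 3 in hindlimb (0.62 to 8.77) and 6 in forelimb (2.2 to 13.1), and to CS39 by 2 in hindlimb and 2 in forelimb. With 2 kb added on either side of each element, CS93 and CS39 shared 122 read pairs in hindlimb (101 to 146) and 89 in forelimb (71.5 to 110), CS65 and CS93 shared 92 and 77, and CS65 and CS39 shared 52 and 51. Scaled to the captured pairs, the log2 ratio of these counts (hindlimb over forelimb) was 0.40 for CS93 and CS39 (exact binomial interval -0.0078 to 0.81), 0.20 for CS65 and CS93 (-0.25 to 0.66) and -0.03 for CS65 and CS39 (-0.61 to 0.56). Each interval includes 0, the first one barely.

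The 3 elements had different far and near means over T-DOM. These means were not matched for distance, along which O/E rises, and no other windows were compared. They cannot be read as particular to the elements. CS39 met the far sub-domain at a mean O/E of 1.07 in hindlimb and 1.08 in forelimb, and the near sub-domain at 0.92 in hindlimb and 0.93 in forelimb. Its highest partner was the first bin of T-DOM, 15925 kb, in hindlimb, at 1.62 against 1.54 in forelimb, and the bin at 15935 kb in forelimb, at 1.63 against 1.43 in hindlimb. Its lowest was 16160 kb in both, at 0.64 in hindlimb and 0.63 in forelimb. Between these, CS39 had a local maximum at 16060 kb in both libraries, 1.16 in hindlimb (617 read pairs) and 1.15 in forelimb (518 read pairs). The bin at 16030 kb gave 0.89 in hindlimb and 0.86 in forelimb. The place of this maximum is that of the weaker insulation minimum at 16060 kb.

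The CS39 window holds the bin at 16150 kb past the border, so its values mix both sides. All CS93 bins lie in the far sub-domain, and the values of CS39 and CS93 are not on one footing. CS93 leaned to its own side, again without matching for distance. It met the far sub-domain at 1.06 in hindlimb and 1.10 in forelimb and the near one at 0.80 in hindlimb and 0.83 in forelimb. Its highest partners were 15935 kb in hindlimb, at 1.44 against 1.46 in forelimb, and 15955 kb in forelimb, at 1.47 against 1.30 in hindlimb. Like CS39, CS93 rose near 16060 kb, where it had 1.05 in hindlimb and 1.04 in forelimb. At 16030 kb it had 0.85 in hindlimb and 0.80 in forelimb. The hindlimb rise went on to 1.06 at 16070 kb, where forelimb had 0.99. CS65, which lies nearer the far end, met both sides about equally, with 0.97 in hindlimb and 1.01 in forelimb for the far sub-domain, and 1.00 in hindlimb and 1.08 in forelimb for the near one. Its lowest values were toward the far end, 0.73 in hindlimb at 15950 kb, against 0.83 in forelimb.

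**Figure D4:**
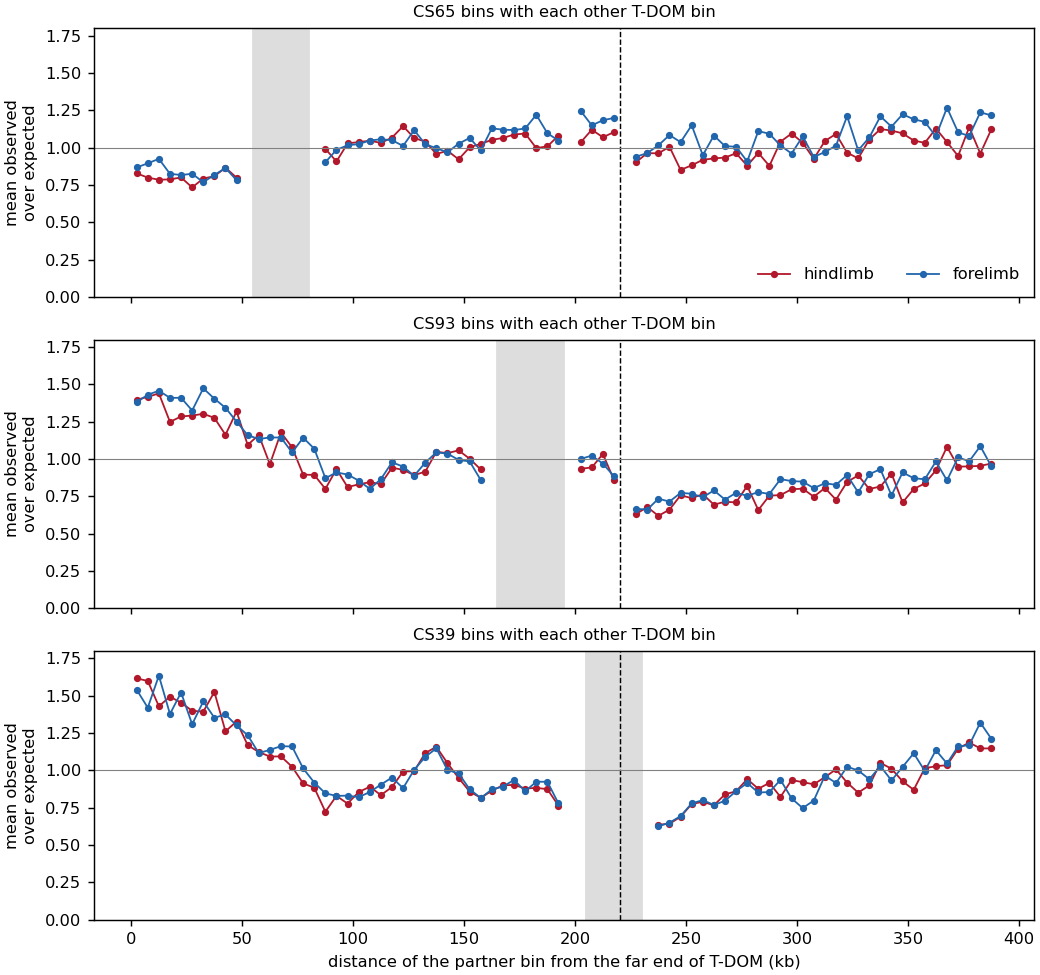
Mean observed over expected of the CS65 bins (top), the CS93 bins (middle) and the CS39 bins (bottom) with every other unmasked bin of T-DOM, by the distance of the partner bin from the far end in kb, in the hindlimb library (red) and the forelimb library (blue); grey bands are the element's own window and the dashed line is the sub-domain border. CS39 and CS93 are highest at the far end (CS39 1.62 hindlimb and 1.54 forelimb at the first bin) and lowest just past the border. CS39 has a local maximum at 16060 kb (1.16 hindlimb, 1.15 forelimb), and CS93 rises near the same place (1.05 hindlimb, 1.04 forelimb at 16060 kb).

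Whether these contacts differed between hindlimb and forelimb buds was asked of the balanced values. Bin pairs were compared by a Wilcoxon signed-rank test (two-sided), the test the study used for such data, with p-values adjusted after Benjamini and Hochberg over 6 blocks. The test compares 2 libraries and not the tissues, and neighbouring bin pairs share reads of the same bins. Contact within the near sub-domain averaged 10.7 per 1000 contacts of a bin in hindlimb and 10.4 in forelimb, a log2 ratio (hindlimb over forelimb) of 0.05 (n = 496 bin pairs, adjusted p = 1.9e-06). Contact between the sub-domains averaged 3.99 in hindlimb and 4.08 in forelimb, a log2 ratio of -0.03 (n = 1419 bin pairs, adjusted p = 0.00017). Contact within the far sub-domain averaged 8.45 in hindlimb and 8.33 in forelimb, a log2 ratio of 0.02 that missed the threshold of 0.05 (n = 862 bin pairs, adjusted p = 0.077), though it passed without the reads of sequencing lane 1 (adjusted p = 0.028).

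None of the 3 element blocks passed the test. CS65 and CS93 averaged 5.94 per 1000 in hindlimb and 6.22 in forelimb, a log2 ratio of -0.07 (n = 30 bin pairs, adjusted p = 0.18). CS65 and CS39 averaged 5.04 in hindlimb and 5.29 in forelimb, also -0.07 (n = 20 bin pairs, adjusted p = 0.31). CS93 and CS39 averaged 9.95 in hindlimb and 9.74 in forelimb, 0.03 (n = 24 bin pairs, adjusted p = 0.51). In raw read pairs scaled to the capture total, the interval of the log2 ratio was -0.09 to 0.08 for CS65 and CS93, -0.08 to 0.13 for CS65 and CS39, and 0.09 to 0.23 for CS93 and CS39. In these scaled counts CS93 and CS39 were higher in hindlimb by 0.16 on the log2 scale (n = 24 bin pairs, Wilcoxon adjusted p = 0.00048). This scaling keeps the larger share of captured pairs that T-DOM held in hindlimb, 8.92% against 8.32% in forelimb. As O/E the log2 ratio of the block was -0.03 (n = 24 bin pairs, Wilcoxon adjusted p = 0.32), so its sign depended on the scaling.

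The direction of the sub-domain differences depended on how contacts were scaled. Across the capture region the hindlimb library had more contact at short range, with a log2 ratio of 0.12 from 10 to 20 kb, and slightly less at long range, -0.04 from 320 to 390 kb. Within T-DOM the log2 ratio ran from 0.10 at 10 to 20 kb to -0.14 at 320 to 390 kb. After division by the expected value of each library, all 3 sub-domain blocks were lower in hindlimb. The log2 ratio was -0.05 within the far sub-domain (n = 862 bin pairs, Wilcoxon adjusted p = 1.7e-07). Within the near one it was -0.03 (n = 496 bin pairs, adjusted p = 0.024). Between them it was -0.04 (n = 1419 bin pairs, adjusted p = 1.1e-06), a sign it already had in balanced values. In raw counts scaled to the capture total all 3 were higher in hindlimb, by 0.09, 0.11 and 0.05 in the same order. Against balanced values only the block between the sub-domains changed sign there. None of these sub-domain differences exceeded 0.11 on the log2 scale, and no direction held under every scaling.

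At the level of single bin pairs the libraries differed by little more than counting error. Among the 2757 T-DOM pairs at least 10 kb apart with 40 or more read pairs over both libraries, the log2 ratio had a median of 0.0025 and an SD of 0.273, where counting error alone gives 0.259. A log2 ratio of 0.5 or more was found in 81 pairs, or 2.94%, against 5.52% over the capture region, and a ratio of -0.5 or less in 104 pairs, or 3.77%, against 5.79%. In C-DOM the shares were 3.49% and 2.05%. The pairs counted over the capture region are thinner, with a counting SD of 0.311, so the shares are not on one footing. The SD was 1.05 times that of counting error in T-DOM, 1.03 times over the capture region and 1.01 times in C-DOM.

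The last question was how far T-DOM keeps its contacts to itself. Of the captured pairs at least 10 kb apart with a mate in T-DOM, 34.0% had both mates there in hindlimb (248924 of 731829, Clopper-Pearson interval 33.9 to 34.1) and 32.9% in forelimb (225888 of 687036, 32.8 to 33.0). The difference of 1.14 percentage points was beyond counting error (two-sided Fisher exact test, p = 1.5e-46, which takes read pairs as independent and compares 2 libraries). The balanced share is another measure, the mean over T-DOM bins of the share of a bin's contacts that stay in T-DOM. Each bin weighs the same, and a pair inside T-DOM counts for both of its bins. Its level and its difference are therefore not on one footing with those of the raw pairs. By this measure a T-DOM bin kept 48.1% of its contacts in T-DOM in hindlimb and 47.6% in forelimb, a difference of 0.42 points that has no test. Among raw pairs at least 50 kb apart, counted as pairs again, the shares were 24.8% in hindlimb and 24.1% in forelimb.

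The rest of the balanced contacts of T-DOM bins went in similar proportions in both libraries. The part of the capture region beyond the far end took 22.7% in hindlimb and 23.0% in forelimb, the cluster 8.59% in hindlimb and 8.47% in forelimb, and C-DOM 8.22% in hindlimb and 7.99% in forelimb. The part beyond C-DOM took 11.6% in hindlimb and 12.0% in forelimb. A bin of the far sub-domain kept 33.9% of its contacts in its own sub-domain in hindlimb and 33.4% in forelimb, and gave 13.2% and 13.5% to the other one. A bin of the near sub-domain kept 32.2% in hindlimb and 31.1% in forelimb, and gave 17.2% and 17.5% to the far one. Near bins gave 11.9% to the cluster in hindlimb and 11.2% in forelimb, while far bins gave 6.08% in hindlimb and 6.41% in forelimb. To the part beyond the far end, near bins gave 17.7% in hindlimb and 18.7% in forelimb, and far bins 26.5% and 26.3%.

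The share kept was lowest at the far end and higher over the rest of the domain. The 3 bins with the lowest forelimb share were 15925, 15930 and 15935 kb. They kept 40.5%, 41.1% and 41.5% in hindlimb and 41.7%, 42.2% and 42.8% in forelimb. The 3 with the highest forelimb share were 16240, 16060 and 16280 kb, which kept 51.4%, 50.6% and 50.1% in hindlimb and 50.5%, 50.3% and 50.2% in forelimb. The hindlimb maximum was 51.7% at 16265 kb, where forelimb had 49.5%. Of the 76 bins, 55 kept more in hindlimb and 21 kept less. In the near sub-domain 28 of 33 bins kept more in hindlimb, with a median difference of 0.85 points, and in the far one 27 of 43 did, with a median of 0.27 points. In raw pairs the intervals of the libraries were apart in 24 bins, all higher in hindlimb, and overlapped in 52. None of these counts was made for bins outside T-DOM, so they cannot be read as particular to it. Over the whole capture region the hindlimb library also had more contact from 10 to 20 kb (log2 ratio 0.12). Whether this bears on the share kept was not tested.

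**Figure D5:**
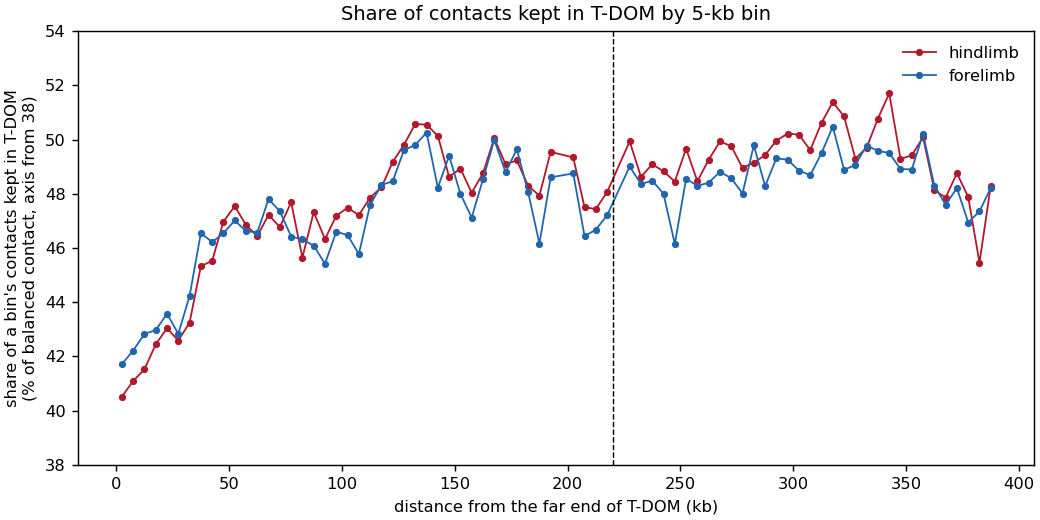
Share of the balanced contacts of each unmasked T-DOM bin that stay inside T-DOM (percent, axis from 38) by distance from the far end in kb, in the hindlimb library (red) and the forelimb library (blue), with the sub-domain border dashed. The share is lowest at the far end (40.5% hindlimb, 41.7% forelimb), where hindlimb lies below forelimb, and hindlimb lies above forelimb in 28 of the 33 bins past the border.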

How the data were processed

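CHi-C was analysed in 1 hindlimb and 1 forelimb library, grouped by the tissue in their labels. According to its methods section, the authors trimmed reads with cutadapt, mapped and filtered them with HiCUP and Bowtie2 on galGal5, and assigned mates to the middle of their DpnII fragments. Values of the deposited raw matrices are counts, the read pairs that join 2 bins, without normalization. The paper reports keeping pairs with both mates above mapping quality 30, and the minimum set here was 30 unless stated. The deposited valid-pair lists give a mapping quality score for each mate. The deposited balanced matrices hold a signal made by the authors with cooler, in which each unmasked bin sums to 1 without the 2 nearest diagonals, so depth is equalised and a bin that gains contact in one place loses it in another. Values are given per 1000.

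Bin pairs under 10 kb apart were left out of balanced values. Insulation scores needed 50% of their bin pairs unmasked, a minimum was the lowest value within 25 kb, and the border was the deepest minimum at least 50 kb from either end of T-DOM in forelimb. Matrices rebuilt from the valid pairs had no differing bin pair in T-DOM, and balancing after cooler's defaults (bins with under 10 filled cells or 5 median absolute deviations below the median masked) differed there by at most 0.057%. This balancing served to leave out lanes and to include pairs of every mapping quality. Regions named were the windows of CS65, CS93 and CS39, the insulation minima, the 5 highest and 3 lowest forelimb patches with at least 5 of 9 cells unmasked, and the 3 bins of highest and of lowest share kept. Element positions came from the coordinate list of the study, and no sequence was printed because no genome of this assembly was used here. Scripts used scipy 1.17.1, were tested on simulated data, and members, regions and tests were chosen with earlier results of these data known. Alternatives were other windows, resolutions, scalings, minimum distances and sets of lanes. The chromosome 2 matrices were not used.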

Additional observations from a re-analysis of the deposited data

How the results depend on the processing

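Of 82 alternative values, 70 kept their direction and their side of the threshold or stayed within counting error. Many of them leave out 1 lane and reuse most reads of the same library, so this count does not measure robustness. Using the hindlimb border could change nothing, since both borders lie at 16145 kb. The border stayed within 5 kb of 16145 kb in every alternative run for it. With the expected value taken from T-DOM alone, contact across the border over contact on one side was 0.797 in hindlimb and 0.789 in forelimb. Without 1 lane at a time this ratio ranged from 0.833 to 0.839 in hindlimb and from 0.827 to 0.832 in forelimb.

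With raw counts scaled to the capture total, the log2 ratio (hindlimb over forelimb) became 0.0245 for CS65 and CS39 and 0.0482 between the sub-domains, both of the opposite sign, and 0.161 for CS93 and CS39 and 0.0941 within the far sub-domain, both now past the threshold. As O/E it became -0.0307 for CS93 and CS39, -0.0482 within the far sub-domain and -0.0283 within the near one, all of the opposite sign. Without 1 lane at a time it ranged from -0.00011 to 0.0532 for CS93 and CS39, from -0.0921 to -0.0217 for CS65 and CS93, from -0.104 to -0.0301 for CS65 and CS39, from 0.0162 to 0.0261 within the far sub-domain (adjusted p 0.028 to 0.39), from 0.0453 to 0.0489 within the near one and from -0.0352 to -0.0233 between them. The difference in the share kept was 0.42 points in balanced values, which give a share per bin, and 1.04 to 1.19 points in raw pairs without 1 lane. The cause of these changes was not tested.

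No paired analysis was possible because each tissue has 1 library and the labels carry no replicate numbers. Lanes are repeat runs of 1 library and no measure of the spread between embryos. Depth limits the contacts between the elements themselves, which rest on 2 to 10 read pairs, and the masked bin at 16145 kb limits the place of the border.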
